A study of Mus musculus with 2 samples.

Results

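The Id family comprised 4 genes, Id1, Id2, Id3 and Id4, chosen by their symbols from the 31053 features of the single cell RNA sequencing (scRNAseq) matrices of newborn mouse eye cups. Their raw UMIs were read in every cell of a Myrf fl/fl control library and a Rx>cre Myrf fl/fl mutant library, and were set beside each other across cell classes and between the libraries. Eye cups were taken at postnatal day 0 after removal of the cornea, lens and optic nerve, and 3 eye cups of each genotype were pooled into 1 library. Both genotypes carried the floxed alleles of Myrf, which encodes a membrane-bound transcription factor. The mutants also carried the Rx>cre transgene, which is active from the early eye field and so in neural retina and retinal pigment epithelium (RPE) together. With 1 pooled library per genotype there was no replicate, so no test between genotypes was possible. Every interval below is a 95% interval that covers counting error only, and none covers the spread between animals.

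Id proteins are helix-loop-helix proteins that lack the basic region with which related transcription factors bind DNA. They pair with E proteins such as Tcf3, Tcf4 and Tcf12 and keep them from pairing with tissue-specific bHLH activators, and they are known for holding progenitors of the nervous system and the vasculature in an undifferentiated or dividing state. Bone morphogenetic protein (BMP) ligands bind receptor serine kinases that phosphorylate Smad1, Smad5 and Smad9, and the Id genes are among the best known direct targets of these Smads. The RPE is the pigmented monolayer behind the neural retina and is itself a source of BMP ligands.

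The stretch of coding sequence that the family shares most closely lay in exon 1 of each gene and covers the helix-loop-helix region through which Id proteins pair with their partners. It is shown because it is the feature that defines the family. The sequences come from GENCODE M21 transcripts on build GRCm38 and are written 5′ to 3′ on the coding strand, each 120 bases long and uninterrupted in the genome. Capitals mark the 69 bases that are identical in all 4 genes.
Id1 (chr2:152736518-152736637, plus strand): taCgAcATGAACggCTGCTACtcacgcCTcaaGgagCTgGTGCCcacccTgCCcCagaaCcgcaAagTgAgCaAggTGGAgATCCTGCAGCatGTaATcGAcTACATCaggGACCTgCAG
Id2 (chr12:25095783-25095902, minus strand): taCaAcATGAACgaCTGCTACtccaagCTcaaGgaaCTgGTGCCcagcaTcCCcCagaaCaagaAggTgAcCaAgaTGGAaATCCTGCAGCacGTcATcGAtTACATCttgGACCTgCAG
Id3 (chr4:136144002-136144121, plus strand): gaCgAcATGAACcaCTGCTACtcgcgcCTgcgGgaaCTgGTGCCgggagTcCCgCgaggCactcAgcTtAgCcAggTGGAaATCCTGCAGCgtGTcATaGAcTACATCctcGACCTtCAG
Id4 (chr13:48261693-48261812, plus strand): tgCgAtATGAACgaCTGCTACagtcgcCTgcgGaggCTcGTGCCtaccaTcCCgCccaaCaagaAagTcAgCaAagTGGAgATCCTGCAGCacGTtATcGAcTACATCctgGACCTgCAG
Id1 and Id2 were the closest pair over this stretch, with 81.7% of bases identical. Id3 was about equally far from the others, with 70.8% identical to Id1, 71.7% to Id2 and 70.8% to Id4. Even the closest pair shared only 98 of the 120 bases, and a UMI here marks the 3′ end of a transcript rather than this stretch. The gene of Id4 overlaps 2 antisense genes in the annotation, Gm49291 and A330033J07Rik. Both were in the matrices. Over all kept cells Gm49291 had 7 UMIs in controls and 9 in mutants and A330033J07Rik had 0 and 2, against 2027 and 2026 of Id4, and neither had a UMI in RPE-like cells. The matrices thus count these genes apart from Id4. Whether counting used the strand is not given in the sources used here, and how reads from the overlap were assigned was not tested.

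The control library held 14305 barcodes and 79017429 UMIs, and the mutant library 12222 barcodes and 76272867 UMIs. Filters left 12485 control cells, with a median depth of 4272 UMIs, and 10813 mutant cells, with a median of 4821. The libraries shared 59 barcode sequences, 47 of them among kept cells. Clustering gave 36 clusters, of which 8 stayed unnamed, and the named clusters held 80.1% of control and 81.9% of mutant cells. They formed 13 classes with at least 30 cells in each library, and a Schwann-like class of 21 control and 20 mutant cells was left out of the comparisons. The Id genes, the BMP pathway genes and the RPE markers were kept out of the clustering. RPE-like cells were a single cluster with 9 of 10 RPE markers, 485 cells in the control library and 199 in the mutant library. In bulk sums of a class, fewer expressing cells and less RNA per cell cannot be told apart, so the share of cells with a UMI is given as well. RPE-like cells differed in depth, with a median of 2452 UMIs in controls and 10635 in mutants, and levels were therefore also compared after each cell was thinned to 1000 UMIs. Levels are given as counts scaled to a common total of 1e+06 UMIs per class and library (CPM). The RPE-like class held 743 UMIs of Myrf itself in the control library (232 CPM) and 64 in the mutant library (27 CPM). The 3′ tags need not lie in the deleted part of Myrf, so this is a check of the labels only as far as its transcript was lost.

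The 4 Id genes differed in abundance and in the cells that held them. Over all kept cells Id3 was the most abundant, at 646 CPM in controls and 589 CPM in mutants. Id1 stood at 288 and 323 CPM, Id2 at 192 and 189 CPM, and Id4 at 29.4 and 31.4 CPM. Each UMI marks the end of 1 transcript, so these levels are not scaled by gene length. Over all kept cells, then, the libraries stood close together for each member, with the largest log2 difference 0.16, for Id1.

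Id3, the member with the highest level, was abundant in the cells of blood vessels and their neighbours. It stood at 2044 CPM in control and 1736 CPM in mutant pericyte-like cells, the contractile cells that wrap capillaries, and at 1593 and 1850 CPM in Pax2+ astrocyte-like cells. Endothelial-like cells, which line the vessels, held 1431 and 1461 CPM. By the mean of both libraries RPE-like cells lay between astrocyte-like and endothelial-like cells, but this place came from 758 CPM in controls and 2306 CPM in mutants. Neighbours in the order of these 4 classes were not apart from each other in both libraries. Retinal progenitor-like cells came next at 711 and 648 CPM, mesenchyme-like cells at 654 and 616 CPM and muscle-like cells at 387 and 342 CPM, each apart from its neighbour in both libraries. By the mean of both libraries photoreceptor-like cells were lowest, at 45.8 and 37.7 CPM, although control red blood-like cells held 31.1 CPM.

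Id1 had its highest levels in astrocyte-like cells, at 735 CPM in controls and 857 CPM in mutants, and in endothelial-like cells, at 615 and 589 CPM. Retinal progenitor-like cells followed at 478 and 505 CPM, and these 3 classes were apart from each other in both libraries. Neurogenic-like cells, named by a marker list that includes Atoh7 and Neurog2, held 312 and 343 CPM of Id1 but only 128 and 138 CPM of Id3. Id1 was thus the largest member in neurogenic-like cells, with 54.1% of Id UMIs in controls and 56.5% in mutants. In amacrine-like cells as a class Id1 gave 52.6% and 52.5%, but in 2 of their 3 clusters Id3 was above Id1 in both libraries. In retinal progenitor-like cells Id3 was the largest member in both libraries, with 46.8% and 44% of Id UMIs against 31.5% and 34.3% for Id1.

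Id2 was highest in astrocyte-like cells at 752 CPM in controls and 833 CPM in mutants. RPE-like cells were next, with 453 and 439 CPM, apart from the class above and from retinal progenitor-like cells below, which held 271 and 269 CPM. Id2 was also the largest member in macrophage-like cells, where it made up 47.4% of Id UMIs in controls and 60.9% in mutants. A small pigmented cluster led by Cck, Slc45a2, Pax3 and Tyrp1, which expresses Kit and Sox10 and was left unnamed because it also carries RPE pigment markers, held mostly Id2. It had 30 control and 18 mutant cells, and Id2 gave 74% and 75.3% of its Id UMIs, at 551 and 645 CPM. Id1 in that cluster was at 17.8 and 30.3 CPM, from 10 UMIs in each library. Its Id2 level was thus as high as in RPE-like cells or higher, while its Id1 and Id3 levels, the latter 160 and 164 CPM, lay below those of both RPE-like groups.

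Id4 was the rarest member. Astrocyte-like cells were highest, at 103 CPM in controls and 153 CPM in mutants, followed by retinal progenitor-like cells at 57.3 and 51.7 CPM and neurogenic-like cells at 34.4 and 30.8 CPM. RPE-like cells had place 9 among the 13 classes by the mean of both libraries, and none of the classes from mesenchyme-like cells down to macrophage-like cells stood apart from its neighbour in both libraries. Muscle-like cells had 2 UMIs of Id4 in controls and 0 in mutants.

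**Figure D1:**
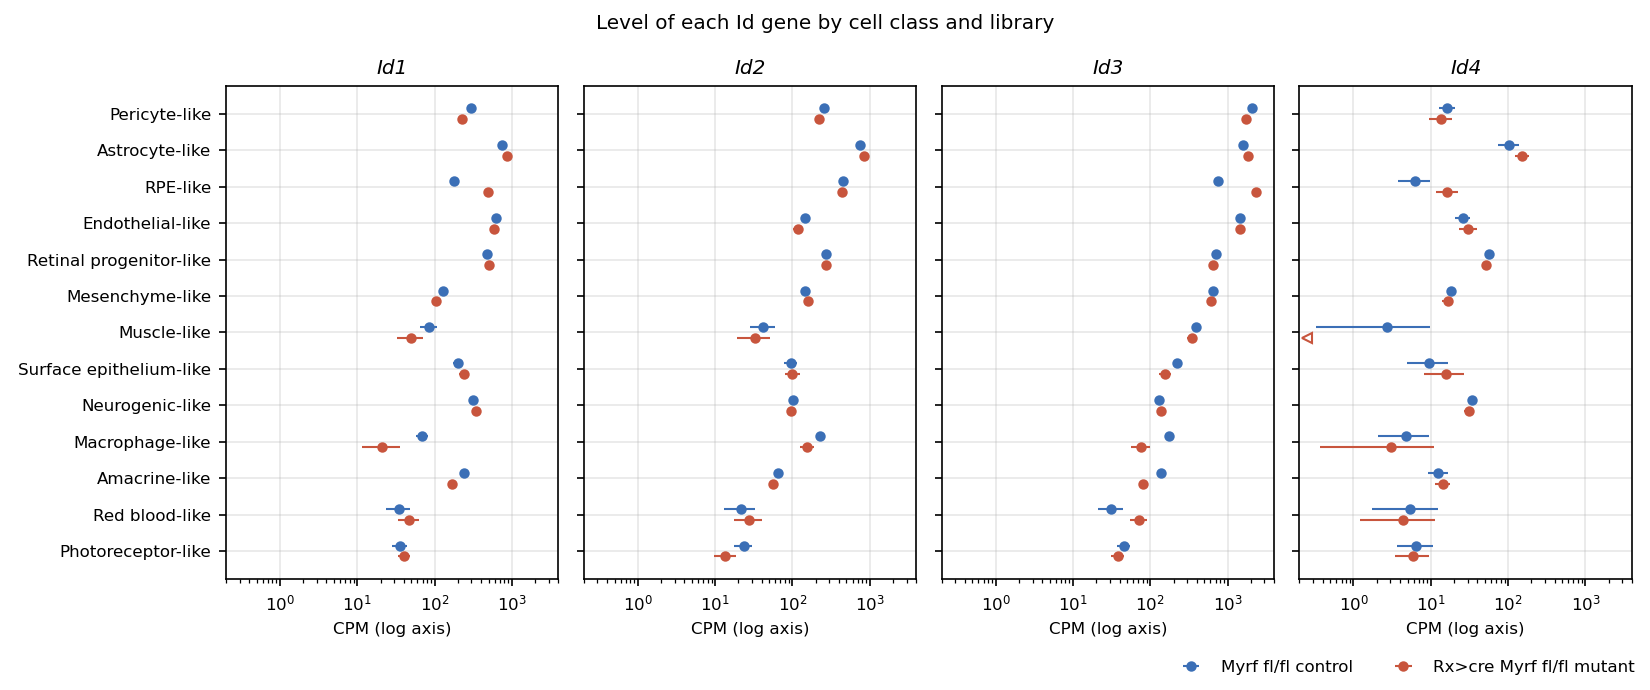
Level of Id1, Id2, Id3 and Id4 (CPM of summed UMIs, log axis) in each of the 13 named classes, ordered by Id3, with blue points for the control library, red points for the mutant library and bars for 95% Poisson intervals; an open triangle at the left edge marks a count of 0. The red and blue points lie close together in most classes, while in RPE-like cells they stand apart for Id1 (178 and 484 CPM) and Id3 (758 and 2306 CPM) but not for Id2 (453 and 439 CPM).

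Within classes the members did not move as a block. The amacrine-like class held 3 clusters, and Id1 was concentrated in the one led by Ptf1a, Prdm13 and Neurog1, genes of newly specified amacrine cells. It held 597 CPM of Id1 in controls and 508 CPM in mutants. The cluster led by Crabp1, C1ql2 and Tfap2a, with the synaptic gene Rph3a, held 15.7 and 17.2 CPM. Id4 in the same clusters was 13.5 and 19.8 CPM against 14.4 and 12.5 CPM, with intervals that overlapped. Retinal progenitor-like cells fell into 3 clusters, and the cluster with the most Id3 held the least Id1 in both libraries. Id3 stood at 1031 CPM in controls and 910 CPM in mutants in the cluster led by Hes5, Npy and Cdca7. In the cluster led by replication histones it was 476 and 468 CPM, and in that led by the mitotic genes Ube2c and Plk1 it was 510 and 467 CPM. Id1 was lowest in the Hes5 cluster, at 407 and 428 CPM, and highest in the histone cluster, at 590 and 631 CPM. Id2 ranged only from 226 to 296 CPM over these 3 clusters and both libraries.

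The pericyte-like class held 2 clusters that were alike in Id3, at 2034 and 2093 CPM in controls and 1749 and 1697 CPM in mutants, but not in Id2. Id2 was 288 CPM in controls and 282 CPM in mutants in the cluster led by Alpl and Aldh1a2, and 97.5 and 35.1 CPM in the cluster led by Rgs5, Kcnj8 and Abcc9, the more typical pericyte markers. Among the mesenchyme-like clusters Id3 was highest in the cluster led by Lypd1, Hsd11b1 and Cnn1, at 1960 CPM in controls and 1697 CPM in mutants. The other mesenchyme-like clusters held between 358 and 677 CPM of Id3.

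In RPE-like cells Id1 and Id3 were higher in the mutant than in the control library, while Id2 was level and Id4 was sparse. For Id1, 569 UMIs were counted in the control library and 1148 in the mutant library, which is 178 CPM (163 to 193) and 484 CPM (457 to 513). The mutant level was 2.73-fold the control level, a difference of 1.44 in log2(CPM + 1) with an interval of 1.30 to 1.59. Id3 had 2428 UMIs in controls and 5468 in mutants, or 758 CPM (728 to 788) and 2306 CPM (2246 to 2368). The mutant level was 3.04-fold the control level, with a log2 difference of 1.60 (1.54 to 1.68). Id2 had 1453 and 1041 UMIs, or 453 CPM (430 to 477) and 439 CPM (413 to 467). Its log2 difference was -0.05 (-0.16 to 0.07), so a difference between the libraries was not detectable for Id2 beyond counting error. Id4 had 20 and 39 UMIs, or 6.24 CPM (3.81 to 9.64) and 16.4 CPM (11.7 to 22.5), a log2 difference of 1.27 with a wide interval of 0.59 to 2.25. Both Id4 levels lay below that of the cells outside the RPE-like class, 30.6 CPM in controls and 32 CPM in mutants.

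Of 11066 genes with at least 20 UMIs in RPE-like cells of both libraries together, 2.54% were at least 2-fold higher in the mutant library and 5.16% at least 2-fold lower. Of the Id genes, 3 of 4 were at least 2-fold higher and 0 of 4 lower. For Id4 this call was lost at a mitochondrial limit of 5% (0.22, -1.15 to 1.62), by the mean of each cell's CPM (0.18), with 10 CPM added (0.70) and at the doublet caller's own threshold (0.96). For Id1 it was lost in cells of up to 2000 UMIs (0.44) and of up to 4000 UMIs (0.72), and in cells without marker UMIs of other cell types (0.95). The median log2 difference was 1.36 over the 4 Id genes and -0.01 over the genes measured. Together the Id genes made up 1395 CPM of control and 3246 CPM of mutant RPE-like cells. The make-up of the family differed as well, with Id2 at 32.5% of Id UMIs in controls and 13.5% in mutants and Id3 at 54.3% and 71%. Id1 kept a like share, 12.7% and 14.9%. Placed among the other classes, control RPE-like cells held less Id1 than retinal progenitor-like cells (178 against 478 CPM) and about as much Id3 (758 against 711 CPM). Mutant RPE-like cells held about as much Id1 (484 against 505 CPM) and more Id3 (2306 against 648 CPM). In the mutant library the Id3 level of RPE-like cells was the highest of the 13 classes.

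**Figure D2:**
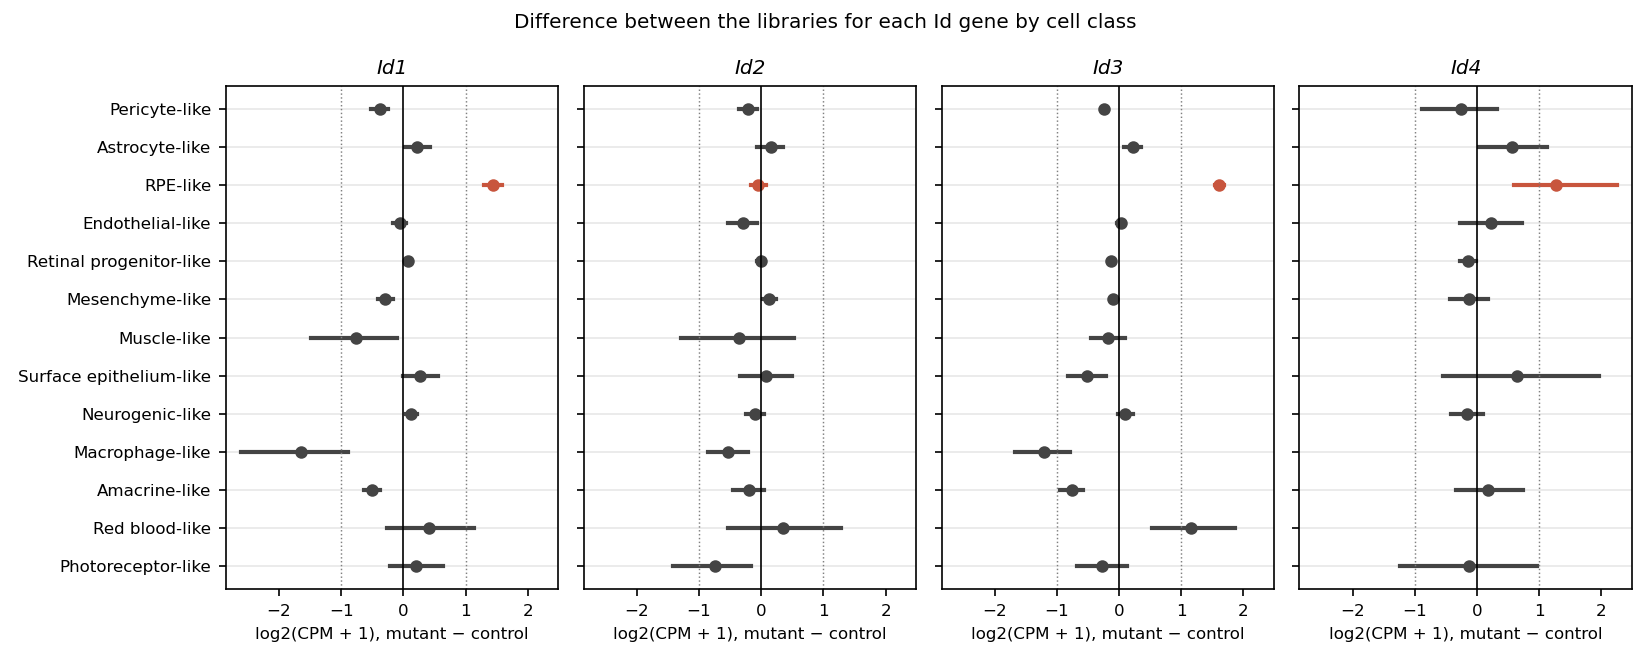
Difference in log2(CPM + 1) between the mutant and the control library for each Id gene in each class (points) with 95% intervals of the ratio (lines); dotted lines mark 2-fold, RPE-like cells are red, and genes with fewer than 20 UMIs in a class are not drawn. In RPE-like cells Id1 (1.44), Id3 (1.60) and Id4 (1.27) lie right of the 2-fold line and Id2 (-0.05) lies at 0, and among other classes Id1 and Id3 of macrophage-like cells lie left of it and Id3 of red blood-like cells right of it.

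RNA of other cell types in RPE-like cells also differed between the libraries. The 9 mesenchyme markers summed to 2409 CPM in control and 324 CPM in mutant RPE-like cells, and the 6 lens markers to 265 and 37.1 CPM. The part of such RNA in the Id1 and Id3 differences was not tested. Markers of the classes richest in Id3 and Id1 were close together, at 257 and 317 CPM for the 7 pericyte markers with Abcc9 at 0, 59.3 and 49.3 CPM for the 7 endothelial markers, and 39.6 CPM in both libraries for the 5 astrocyte markers. The 8 progenitor markers summed to 1164 and 1287 CPM. The 10 RPE markers themselves summed to 29352 and 19922 CPM. When only cells with no UMI of the mesenchyme, pericyte, endothelial, macrophage and lens markers after thinning were kept, 64 control and 95 mutant cells remained. In these the log2 difference was 0.95 (0.74 to 1.17) for Id1, 1.13 (1.03 to 1.23) for Id3 and -0.37 (-0.55 to -0.20) for Id2, so Id1 was no longer past 2-fold. The 360 control and 161 mutant cells with at least 3 UMIs of the pigment genes Pmel, Tyrp1 and Dct after thinning gave values within the intervals of all RPE-like cells for the 4 members. Both restrictions were chosen after the data had been seen.

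Depth was not matched between the RPE-like cells of the libraries, so they were also divided by UMIs per cell. For Id3 the mutant level was higher in each of 4 ranges. It was 1514 against 481 CPM in cells of up to 2000 UMIs, 1201 against 755 CPM between 2000 and 4000, 1849 against 890 CPM between 4000 and 8000 and 2379 against 770 CPM above 8000, and no interval of the ratio reached 0. For Id1 the mutant level was higher in each range too, but the ratio was apart from 0 only above 4000 UMIs. It was 353 against 110 CPM between 4000 and 8000 UMIs and 504 against 192 CPM above 8000. Below 4000 UMIs Id1 rested on 60 UMIs in controls and 20 in mutants. For Id2 the mutant level was below the control level in all 4 ranges, and the ratio was apart from 0 in 1 of them, between 4000 and 8000 UMIs, at 218 against 392 CPM.

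**Figure D3:**
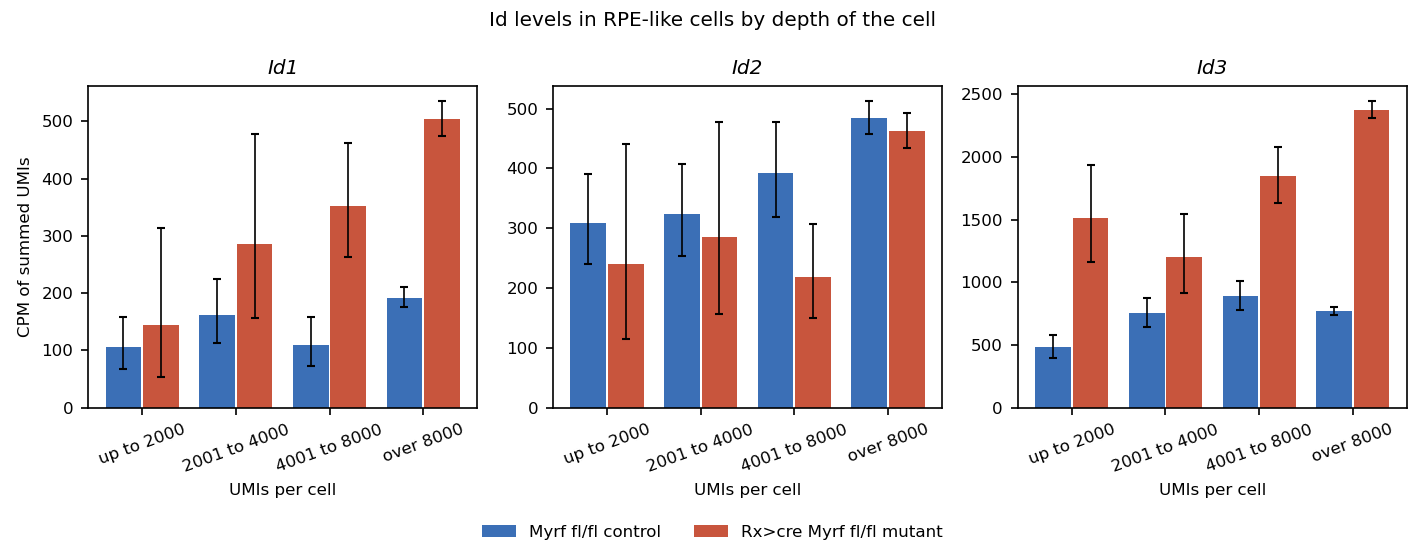
Level of Id1, Id2 and Id3 (CPM of summed UMIs, axes from 0) in RPE-like cells divided by the UMIs of the cell, with blue bars for the control library, red bars for the mutant library and error bars for 95% Poisson intervals. Id3 is higher in the mutant library in all 4 ranges, for example 2379 against 770 CPM above 8000 UMIs, while the intervals of Id2 overlap in 3 of the 4.

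The differences in summed UMIs were also present in the share of cells. After thinning to 1000 UMIs, 384 control and 175 mutant RPE-like cells remained, and 101 and 24 shallower cells were left out. Id3 was detected in 35.7% of control cells (30.9 to 40.7) and 76.6% of mutant cells (69.6 to 82.6). Among detecting cells the mean was 1.88 Id3 UMIs in controls and 2.69 in mutants, and cells with at least 2 UMIs were 15.6% and 57.7%. Id1 was detected in 12.2% (9.13 to 15.9) and 32.6% (25.7 to 40.1). Cells with at least 2 Id1 UMIs were 0.26% in controls and 9.71% in mutants. Id2 was detected in 27.3% (22.9 to 32.1) and 30.3% (23.6 to 37.7), with a mean of 1.30 and 1.28 UMIs in detecting cells. Without thinning the shares were 58.1% and 88.9% for Id3, 30.3% and 68.8% for Id1 and 53.6% and 72.9% for Id2, so that for Id2 the gap between libraries was present only at unequal depth. As a class of low Id levels at the same thinned depth, photoreceptor-like cells were set beside these shares, and how much of their Id UMIs came from free RNA was not tested. Id3 was detected there in 3.32% and 3.56% of thinned cells, Id1 in 4.07% and 3.29% and Id2 in 1.81% and 1.05%, with median depths before thinning of 2888 and 3256 UMIs. Id4 was detected in 3 of 384 control RPE-like cells (0.781%, 0.161 to 2.27), and in 0.603% of control photoreceptor-like cells (0.165 to 1.54), so the intervals overlapped and Id4 in control RPE-like cells was not detectable above that class. It was detected in 7 of 175 mutant RPE-like cells (4%, 1.62 to 8.07) against 0.264% of mutant photoreceptor-like cells (0.0319 to 0.949).

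**Figure D4:**
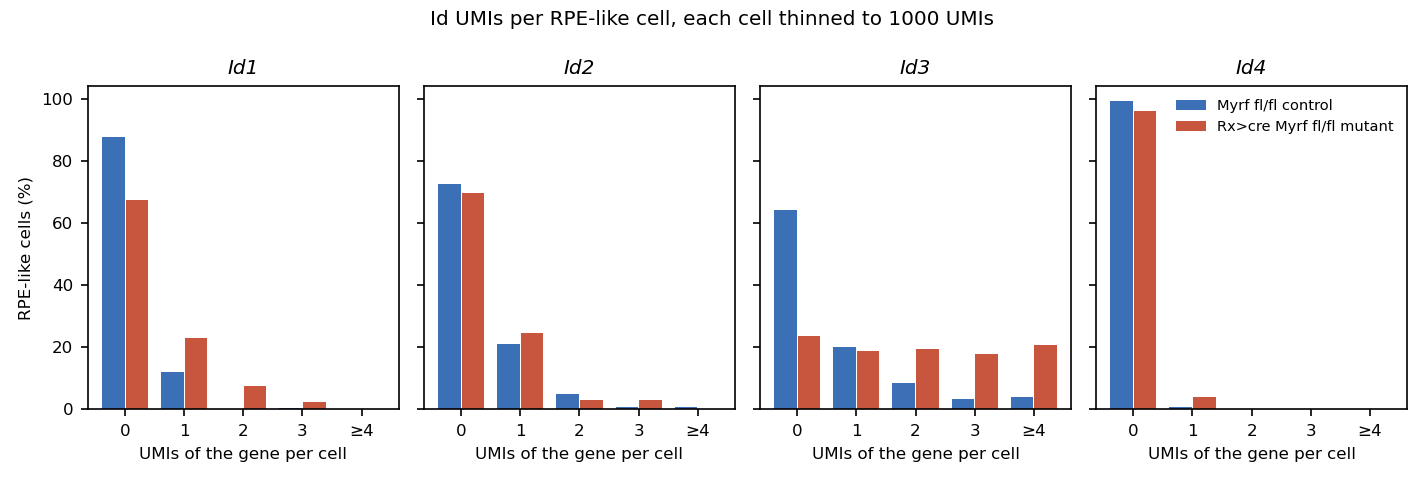
Share of RPE-like cells (%, axis from 0) with 0, 1, 2, 3 or at least 4 UMIs of each Id gene after each cell was thinned to 1000 UMIs, with blue bars for 384 control and red bars for 175 mutant cells. For Id3 the mutant cells spread to higher counts (57.7% with at least 2 UMIs against 15.6%), for Id1 9.71% of mutant cells reach 2 UMIs against 0.26%, and for Id2 the bars are alike.

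Co-detection followed the same division. After thinning, both Id1 and Id3 were found in 30 of 384 control RPE-like cells (7.81%, 5.33 to 11) and 46 of 175 mutant cells (26.3%, 19.9 to 33.5). The product of the single shares was 4.37% in controls and 24.9% in mutants, so the share of mutant cells with both was close to that product. With other random draws of the thinning, controls gave 4.43% and 4.69%, against products of 3.64% and 3.46%, and mutants 28% and 30.3%, against 24.8% and 26.4%. Id2 and Id3 were found together in 13.3% of control (10.1 to 17.1) and 24.6% of mutant cells (18.4 to 31.6), against products of 9.76% and 23.2%. Id1 and Id2 were found together in 5.99% (3.83 to 8.85) and 10.3% (6.21 to 15.8). At least 2 different Id genes were found in 20.1% of control and 44.6% of mutant RPE-like cells, and none in 47.9% and 12%. These are shares of cells with UMIs of both genes at this depth, with no share for free RNA taken off.

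In 2 of the other classes with the most Id1 the co-detection of Id1 and Id3 was close in the libraries. In retinal progenitor-like cells it was 16.1% in controls (14.8 to 17.4) and 15.7% in mutants (14.5 to 16.9), and in endothelial-like cells 26.8% (22.4 to 31.5) and 26.4% (19.7 to 34). It was 7.31% (6.09 to 8.68) and 4.65% (3.22 to 6.47) in mesenchyme-like cells, 11.4% (6.5 to 18) and 7.69% (2.54 to 17) in surface epithelium-like cells and 32.3% (16.7 to 51.4) and 42.4% (25.5 to 60.8) in the few astrocyte-like cells. At the control level RPE-like cells thus lay below retinal progenitor-like cells, and at the mutant level they lay at the share of endothelial-like cells. At least 2 different Id genes were found in 28% and 27.4% of retinal progenitor-like cells, 34% and 34.6% of endothelial-like cells, and 64.5% and 75.8% of the 31 control and 33 mutant astrocyte-like cells. In photoreceptor-like cells this was 0.754% and 0.395%.

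Outside the RPE-like class the libraries were closer for most members. In retinal progenitor-like cells, which descend from the same eye field and carried the same transgene, the log2 difference was 0.08 (0.03 to 0.12) for Id1, -0.01 (-0.07 to 0.05) for Id2, -0.13 (-0.17 to -0.10) for Id3 and -0.15 (-0.28 to -0.02) for Id4. In endothelial-like cells Id1 (-0.06, -0.17 to 0.04) and Id3 (0.03, -0.04 to 0.10) did not differ beyond counting error. In pericyte-like cells Id1 (-0.37), Id2 (-0.21) and Id3 (-0.24) were lower in the mutant library by more than counting error. In mesenchyme-like cells the Id1 difference of -0.29 (-0.40 to -0.17) shrank to -0.08 (-0.21 to 0.04) without the cluster led by Col1a1 and Dkk2, which had 613 control and 30 mutant cells. In amacrine-like cells Id1 (-0.51) and Id3 (-0.76) were lower in the mutant library, and by cluster this was most marked in that led by Klhl35, Nhlh2 and Slc1a6, at 156 against 59.9 CPM for Id1 and 168 against 63.6 CPM for Id3. An unnamed cluster that shares its leading genes with the latter held 104 cells in each library and 95.9 against 26.4 CPM of Id3.

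Other than in RPE-like cells, a measured Id gene differed by at least 2-fold in 2 of the 13 classes. In macrophage-like cells 2 of 3 measured Id genes were at least 2-fold lower in the mutant library, beside 5.49% of all genes measured there. Id1 had 115 and 14 UMIs (68.7 and 21.2 CPM, log2 difference -1.65, -2.61 to -0.89) and Id3 had 296 and 50 UMIs (177 and 75.8 CPM, -1.21, -1.68 to -0.79). Marker RNA of other types differed too, from 1504 to 117 CPM for the mesenchyme list and from 591 to 44 CPM for the RPE list. The progenitor list went from 750 to 515 CPM, the pericyte list from 91.4 to 7.58 CPM and the lens list from 238 to 0 CPM. The endothelial list went the other way, from 116 to 162 CPM. The part of such RNA in the difference was not tested. In macrophage-like cells of over 4000 UMIs the Id3 difference was -0.76 (-1.26 to -0.30), and by the mean of each cell's CPM it was -2.14. In red blood-like cells 1 of 3 measured Id genes was at least 2-fold higher in the mutant library, beside 10.2% of all genes measured, whose median difference was 0.30. This was Id3, with 29 and 64 UMIs (31.1 and 70.6 CPM, log2 difference 1.16, 0.53 to 1.87), and the mean of each cell's CPM gave -0.09. Over all red blood-like cells the intervals of Id1 (0.42, -0.26 to 1.14) and Id2 (0.35, -0.54 to 1.29) held 0. By the mean of each cell's CPM Id1 was -0.84 and Id2 -0.77. Only in red blood-like cells over 4000 UMIs, at 2.15 (1.31 to 3.25) for Id3, 1.68 (0.76 to 2.86) for Id1 and 1.12 (0.07 to 2.42) for Id2, were all 3 past 2-fold. Globin genes and other red cell markers summed to 851413 CPM in control and 831408 CPM in mutant red blood-like cells. The progenitor list stood at 584 and 756 CPM and the mesenchyme list at 1061 and 89.3 CPM in these cells, and their part in the difference was not tested.

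Around the Id genes, members of the BMP pathway were measured in RPE-like cells of both libraries. The counts of genes past 2-fold are to be read beside the 2.54% higher and 5.16% lower over all genes. Of the 8 BMP ligand genes 4 were measured. Bmp4, the ligand of dorsal eye patterning, had 1582 UMIs in controls and 411 in mutants, 494 and 173 CPM (log2 difference -1.50, -1.67 to -1.35). Bmp7 stood at 159 and 128 CPM (-0.32, -0.53 to -0.11, but 0.83 in cells of up to 4000 UMIs), Bmp6 at 73 and 71.3 CPM, and Bmp2 at 45.6 and 56.9 CPM (0.32, -0.03 to 0.67). All 4 were far more abundant in RPE-like cells than outside them, where Bmp4 stood at 16.1 and 9.07 CPM and Bmp2 at 4.86 and 3.71 CPM. The measured ligand gene with the highest level was lower in the library in which Id1 and Id3 were higher, and any link between these levels was not tested.

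Of 8 receptor genes 5 were measured and 0 were past 2-fold. The type 1 receptor Bmpr1a stood at 54.3 and 69.2 CPM (0.34, 0.03 to 0.67) and the type 2 receptor Bmpr2 at 70.8 and 45.6 CPM (-0.63, -0.98 to -0.30). The intervals of Acvr1 (0.08) and Acvr2a (-0.62) held 0.

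Of 11 genes for secreted inhibitors 6 were measured, and 2 were past 2-fold lower and 0 higher. Wfikkn2, a secreted protein that binds GDF ligands, had 966 UMIs in controls and 42 in mutants, 301 and 17.7 CPM (log2 difference -4.01, -4.57 to -3.64). It was counted in this list, but whether it acts on the BMP ligands measured here was not tested. Smoc1, a matrix protein that antagonises BMP, had 32 and 6 UMIs (-1.64, -3.53 to -0.70, but -0.67 with 10 CPM added). Nog, encoding noggin, stood at 104 and 60.3 CPM (-0.77) and Chrd, encoding chordin, at 16.5 and 9.28 CPM (-0.77), neither past 2-fold but both apart from 0. The median of the 6 measured inhibitors was -0.77, beside -0.01 over all measured genes, and all 6 lay below 0, with intervals that held 0 for Twsg1 (-0.15) and Nbl1 (-0.25).

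Among the 4 BMP Smads, 1 was past 2-fold higher. Smad9 had 5 UMIs in controls and 30 in mutants (1.56 and 12.7 CPM, log2 difference 2.41, 1.64 to 4.74, but 0.97 with 10 CPM added). Smad1 (0.04), Smad5 (-0.14) and Smad4 (0.03) had intervals that held 0. Of 6 genes taken as feedback targets of BMP, 5 were measured and 1 was past 2-fold higher. Atoh8, a bHLH factor, had 27 and 64 UMIs (8.43 and 27 CPM, 1.57, 1.01 to 2.39), but was not past 2-fold by the mean of each cell's CPM (0.57). Smad6, the inhibitory Smad induced by BMP, stood at 24.3 and 46 CPM (0.89, 0.48 to 1.36). Smad7 stood at 38.1 and 36.7 CPM and Tob1 at 44.6 and 38.8 CPM, with intervals that held 0, and Bambi, a decoy receptor, was lower at 35.9 and 21.9 CPM (-0.69, -1.21 to -0.23).

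**Figure D5:**
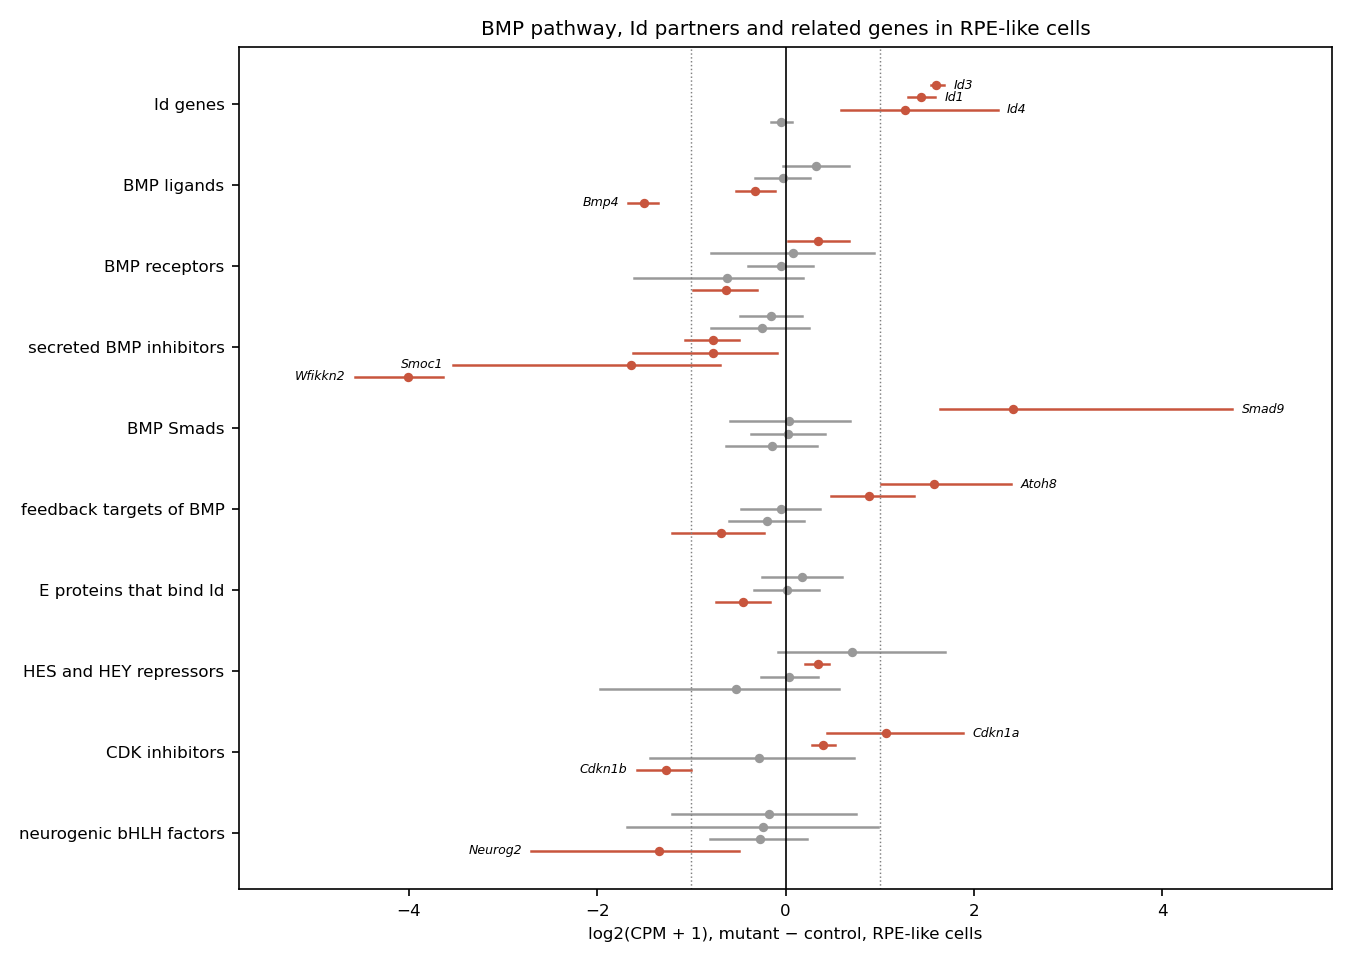
Difference in log2(CPM + 1) between mutant and control RPE-like cells for the measured genes of each list (points) with 95% intervals (lines), red where the interval does not reach 0 and grey where it does; dotted lines mark 2-fold and genes past it are named. Id1 (1.44), Id3 (1.60), Smad9 (2.41) and Atoh8 (1.57) lie to the right, Bmp4 (-1.50) and Wfikkn2 (-4.01) to the left, and most other genes within 2-fold.

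The E proteins that Id proteins sequester were less abundant in RPE-like cells than elsewhere. Tcf4 stood at 90.8 CPM in controls and 66.2 CPM in mutants (-0.45, -0.74 to -0.17, but 0.15 in cells with Xist but without Y-linked UMIs), against 437 and 401 CPM outside the class. Tcf12 was 52.1 and 52.3 CPM and Tcf3 32.5 and 36.7 CPM, and the intervals of both held 0. Against the sum of Id UMIs, which was 1395 and 3246 CPM, none of the 3 was past 2-fold. Of the 4 HES and HEY repressors, which are Notch targets that also hold progenitors, none was past 2-fold. Hes1 was 336 and 424 CPM (0.34, 0.21 to 0.46), a direction that reversed in cells low in cycle genes (-1.87), and Hey1 (0.71) and Hey2 (-0.53) had intervals that held 0. Among the CDK inhibitors Cdkn1a, which encodes p21, was 8.74 and 19.4 CPM (1.07, 0.44 to 1.88), but was not past 2-fold under 6 alternatives, with values from 0.62 at a mitochondrial limit of 5% to 0.97 with no gene left out of clustering. Cdkn1b, which encodes p27, was 134 and 54.8 CPM (-1.27, from 428 and 130 UMIs, but -0.76 in cells low in cycle genes), and Cdkn1c, which encodes p57, was 353 and 465 CPM (0.40, 0.28 to 0.52), but -0.59 in cells of up to 4000 UMIs. Of 5 neurogenic bHLH genes, 4 were measured and 1 was past 2-fold lower, Neurog2 with 39 and 10 UMIs (-1.34, -2.70 to -0.50), a direction that reversed to 0.40 when no doublets were called. Neurod1 had 87 and 53 UMIs, with an interval that held 0 (-0.27, -0.80 to 0.23). Both were lower in the class, at 12.2 and 4.22 CPM for Neurog2 and 27.2 and 22.4 CPM for Neurod1, than outside it, at 93.9 and 122 CPM and at 320 and 364 CPM.

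In the neural retina, where Id proteins are known to oppose neurogenic bHLH factors, Id genes and these factors were found in the same cells. In thinned retinal progenitor-like cells of the control library Id1 was detected in 33.9% of 3181 cells without a UMI of Atoh7 or Neurog2 (32.2 to 35.6) and in 42.6% of 61 cells with one (30 to 55.9). In mutants this was 35.3% of 3654 cells (33.8 to 36.9) and 26.2% of 103 cells (18 to 35.8), so the order turned between the libraries and the intervals overlapped in both. Id3 was detected in 42.7% and 44.3% of these cells in controls and 39.8% and 37.9% in mutants. In neurogenic-like cells Id1 was detected in 15.9% of 765 cells without (13.4 to 18.7) and 23.9% of 779 cells with such a UMI (20.9 to 27) in controls, and in 19% of 738 (16.2 to 22) and 26.2% of 905 cells (23.3 to 29.2) in mutants. Id3 in these cells was 11.2% and 8.47% in controls and 11.9% and 10.2% in mutants. Among neurogenic-like cells, those with a UMI of Atoh7 or Neurog2 thus had the larger share with Id1 in both libraries. As a class, neurogenic-like cells had a lower share with Id1, Id2 or Id3 than retinal progenitor-like cells, but their clusters were unlike in Id1. It stood at 162 CPM in controls and 183 CPM in mutants in the cluster led by Pkib and Atoh7. In that led by Gadd45g and Miat it was 302 and 338 CPM. In that led by Hes2 and Tfap2d it was 515 and 533 CPM, above the Hes5 (407 and 428 CPM) and mitotic (469 and 484 CPM) progenitor-like clusters.

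Over the 26 points given by 13 classes in 2 libraries, Pearson's r of log2(CPM + 1) between members was 0.84 for Id1 and Id4, 0.79 for Id2 and Id3, 0.74 for Id1 and Id3, 0.70 for Id1 and Id2, 0.64 for Id2 and Id4 and 0.49 for Id3 and Id4. The points of a class share their cells' lineage and the points of a library share its free RNA, so these values only describe the profiles. Among 7580 genes that reached 50 CPM in at least 1 point, Id4 was the gene most like Id1, followed by Fam181b (0.83), Kctd17 (0.83), the Notch target Hes1 (0.82) and Mpst (0.81). The genes most like Id2 were Tns3 (0.90), Pdlim5 (0.87), Ggh (0.86), Acot1 (0.85) and Stxbp6 (0.85). Those most like Id3 were Rab13 (0.90), Rhoc (0.89), Rest (0.89), Fads3 (0.89) and Sorbs3 (0.88). Id4 was most like Lrrtm1 (0.87), Sorbs2 (0.87), Id1 (0.84), the glial glutamate transporter Slc1a3 (0.83) and Lsamp (0.83). No other Id gene was among the 5 genes most like Id2 or Id3.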

How the data were processed

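Eye cups of Myrf fl/fl controls and Rx>cre Myrf fl/fl mutants were profiled with the 10x Genomics 3′ assay. The authors deposited, per library, a matrix of raw UMI counts per gene and barcode. Their processing notes name Cell Ranger 7.1.0, Seurat 4.1.1 and mm10, and the matrix headers carry software version 3.1.0. Barcodes with at least 200 genes and at most 15% mitochondrial UMIs were kept. The study's methods state an upper limit of 2000 UMIs. It was an alternative here, since 80.2% of control and 92.1% of mutant barcodes exceeded it before filtering. Scrublet (scanpy 1.11.5) scores were cut at an expected 0.8% doublets per 1000 cells, because its own threshold marked 0% of control barcodes and 5.46% of mutant barcodes. This removed 1646 control and 1214 mutant barcodes. Libraries were integrated in Seurat 5.3.0 (R 4.3.3; 2000 variable genes, 30 components, resolution 1) with 62 genes left out, namely the Id and BMP lists, RPE and melanocyte markers and sex-linked genes. A cluster took a name from at least 3 markers in 10% of its cells at 2-fold, and stayed unnamed if its median depth was below its samples' median divided by 3, if it shared 5 of 10 leading genes with a shallower cluster of another name or if another class led its top 10; they were chosen after the clusters had been seen.

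UMI counts were summed per class and library and given as CPM. Differences are in log2(CPM + 1), which understates changes of low genes, and genes with fewer than 20 UMIs over both libraries were not measured. Ratio intervals are exact conditional Poisson, level intervals exact Poisson and shares Clopper-Pearson, all at 95%. A share of 0 allows up to 3 counts. Cells were thinned to 1000 UMIs for shares. The code was tested on simulated data. The members and gene lists were chosen with earlier results of these data known, and a member of the neurogenic list is not reported here. The rule for named genes took the Id genes, list members past 2-fold or with the 2 largest differences either way, and the 5 genes most like each Id gene. Values of Bmp6, Nog, Chrd, Twsg1, Nbl1, Smad4 and Smad7 fell outside it, were chosen after being seen and were given no alternative.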

Additional observations from a re-analysis of the deposited data

Results flagged for a closer look

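Id1 and Id3 differed in opposite directions between cell groups under the same contrast of mutant and control libraries. In RPE-like cells the log2 difference was 1.44 for Id1 and 1.60 for Id3. In macrophage-like cells it was -1.65 for Id1 and -1.21 for Id3. In the unnamed cluster led by Klhl35, Igfbpl1 and Slc1a6 it was -1.82 for Id3. That cluster carried 7 of 8 photoreceptor markers beside leading genes of an amacrine-like cluster, at a median of 9095 UMIs, and whether it holds doublets was not tested. With 1 library per genotype the differences between these groups were not tested.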

How the results depend on the processing

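In RPE-like cells Id1 and Id3 were above 0 under all 21 alternatives each, from 0.44 to 1.80 for Id1 and from 1.07 to 1.98 for Id3 (log2, mutant against control). The Id1 interval held 0 in cells of up to 2000 UMIs (-1.13 to 1.77) and of up to 4000 UMIs (-0.09 to 1.47). Clustering at resolution 0.5 gave the same numbers of RPE-like cells and Id UMIs as the main run, so it could not move these values. Values outside the main interval were as follows. Cells of up to 2000 UMIs gave 0.44 for Id1 and -0.36 for Id2, and cells of up to 4000 UMIs gave 0.72 for Id1, -0.26 for Id2 and 1.12 for Id3. A mitochondrial limit of 5% gave 1.60 for Id1, 1.98 for Id3 and 0.22 for Id4. Thinning to 1000 UMIs gave 1.80 for Id1 and 0.12 for Id2. Cells with Xist but without Y-linked UMIs gave 1.28 for Id1 and -0.22 for Id2, and cells with a Y-linked UMI and no Xist gave 0.08 for Id2 and 1.30 for Id3. The former were 81 control and 78 mutant cells and the latter 125 and 35. The sexes were thus unequally represented in the libraries, and the part of sex in the differences was not tested. Cells low in S and G2/M genes gave 1.07 for Id3. Cells with no marker UMI of other cell types, an alternative added after seeing the data, gave 0.95 for Id1, -0.37 for Id2 and 1.13 for Id3. The mean of each cell's CPM gave 0.18 for Id4. The cause of these moves was not tested. The difference in Id1 and Id3 co-detection, 18.5 percentage points, was 9.5 at 500 UMIs and 42.8 without thinning, and was above 0 under all 12 alternatives.

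Among the list genes that the naming rule took, the following reversed. Bmp7 gave 0.44 in cells of up to 2000 UMIs, 0.83 in cells of up to 4000 UMIs and 0.03 by the mean of each cell's CPM, and Cdkn1c gave -0.22, -0.59 and -0.04 in the same order. Hes1 gave -0.30 in cells of up to 2000 UMIs and -1.87 in cells low in S and G2/M genes. Neurog2 gave 0.40 with no doublet call, and in cells with Xist but without Y-linked UMIs Tcf4 gave 0.15. Elsewhere, thinning gave 0.04 for Id2 in endothelial-like cells, and the mean of each cell's CPM gave 0.06 for Id3 in mesenchyme-like and -0.09 for Id3 in red blood-like cells. A change of sign was counted as a reversal only where the main interval did not hold 0. By that mean Id1 (-0.84) and Id2 (-0.77) in red blood-like cells also changed sign, but their main intervals held 0. Alternatives with fewer than 20 UMIs over both libraries or none in 1 of them gave no value, which left out 6 for Id4 in RPE-like cells. No paired analysis was possible because each genotype had 1 library. Depth limits Id4 most, with 20 and 39 UMIs in RPE-like cells.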
